A study of Mus musculus with 30 samples.

Results

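The data were read counts per gene in the hippocampus of 30 mice, and the genes described here were 10 genes of the circadian clock and its output, Per1, Per2, Per3, Dbp, Ciart, Nr1d1, Nr1d2, Arntl, Tef and Bhlhe41. They were taken by name from a table of 49315 gene identifiers, and all 10 were among the 16486 genes that passed the filter on low counts. The mice were 13 labelled KO (6 males and 7 females) and 17 labelled WT (10 males and 7 females), all of the strain C57BL/6J, with no treatment named. The study took its TIMP2 KO line from the Jackson Laboratory and also used a neuron-specific deletion, which is not among these samples. Mice are numbered below as in their titles. The study's methods name the date of isolation or harvest as a batch that was a significant source of variation and was adjusted for in its network analysis. The age of each mouse, the time of day at which tissue was taken and the harvest date were not in the labels, so none of the levels below could be set against them, and no test below takes the harvest date into account. RNA came from the whole dissected hippocampus, where fewer cells of a type and less RNA per cell cannot be told apart.

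The circadian clock is a feedback loop of transcription. ARNTL (also called BMAL1) pairs with CLOCK or its relative NPAS2, binds E-box sequences and activates genes of its own repressors, among them the Per and Cry genes, Ciart and Bhlhe41, and of the nuclear receptors Nr1d1 and Nr1d2 (REV-ERB alpha and beta), which in turn repress Arntl through ROR response elements. Dbp and Tef are bZIP factors that carry the rhythm to other genes through D-box sequences. In tissues with a running clock, Arntl is known to be high when Dbp, Nr1d1 and Ciart are low, and the hippocampus is known to hold such a clock, entrained by the suprachiasmatic nucleus and by hormones.

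The short motifs that these factors are known to bind are shown first, as background to the loop. RefSeq promoter windows of GRCm38.p6, each with 250 bases before and 50 bases after a start site, were at hand for 9 of the 10 members, in 12 windows. Per2 had no entry. Both strands were searched for the E-box CACGTG, its variant CACGTT, the D-boxes TTATGTAA and TTACGTAA, the ROR element cores TAGGTCA and TGGGTCA, and the cAMP response element TGACGTCA. The stretches of 4 members follow, 5′ to 3′ on the strand of the gene. They hold the most matches, a match near the start site or, for Bhlhe41, a match in a gene of the pair that varied most closely together. The windows of Dbp, the other gene of that pair, and of Nr1d2 held none of these motifs. Capitals mark the D-boxes in Per3, the E-boxes in Ciart and Bhlhe41, and the E-box variant (read on the other strand) in Nr1d1.
Per3, chr4:151044786-151044900, minus strand: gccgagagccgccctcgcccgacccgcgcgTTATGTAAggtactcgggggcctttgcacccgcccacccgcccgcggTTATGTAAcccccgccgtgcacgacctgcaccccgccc
Ciart, chr3:95882237-95882374, minus strand: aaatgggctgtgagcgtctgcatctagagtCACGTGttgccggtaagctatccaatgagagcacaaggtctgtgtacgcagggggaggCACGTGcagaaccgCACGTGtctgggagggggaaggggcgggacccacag
Nr1d1, chr11:98775378-98775435, minus strand: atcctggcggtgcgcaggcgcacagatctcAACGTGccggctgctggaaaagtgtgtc
Bhlhe41, chr6:145865538-145865603, minus strand: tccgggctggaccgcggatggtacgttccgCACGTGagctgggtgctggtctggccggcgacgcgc

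An E-box was present in 5 of the 12 member windows and in 7.15% of all 32851 windows of the same length. These 5 windows belonged to 4 members, Per1, Ciart, Tef and Bhlhe41. In Ciart there were 3, which began 116, 58 and 44 bases before the start site. The Per3 window held 2 D-boxes, at 205 and 158 bases before the start, where 1.06% of all windows held any D-box. The variant of Nr1d1 began 28 bases before the start, and the variant was found in 4.68% of windows. An ROR element core was found in 1 member, Arntl, 31 bases after the start site of its second window, and in 6.45% of windows. The cAMP response element was found in 0 member windows and in 1.79% of windows. In GENCODE, 15 bases of the Ciart stretch and 21 bases of the Bhlhe41 stretch lie in an annotated exon, and the Per3 and Nr1d1 stretches lie before the gene. The stretches around the E-boxes of Per1 and Tef, not printed here, lie wholly within the annotated genes. These matches are a description of letters, and binding was not measured.

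On GRCm38 the members lie on 8 chromosomes, and 2 of them share chromosome 11 with Timp2 (chr11:118301069-118355740). Nr1d1 is at chr11:98767932-98775333, 19.5 Mb from Timp2, and Per1 at chr11:69095217-69109960, 49.2 Mb away. Several members overlap other annotated genes. Nr1d1 overlaps Thra and Dbp overlaps Sphk2, both on the opposite strand, and Per3 overlaps Camta1. The strand setting of the counting is not given in the sources used here, so reads from such partners could not be told apart with certainty.

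Levels differed widely between members. Per kilobase of exon, the mean level over the 30 mice was highest for Tef, at 50.1 CPM per kb (SD 2.59), where CPM are counts scaled to the effective library size. Then came Nr1d1 with 25.3 (SD 2.76), Nr1d2 with 16.8 (SD 1.48) and Dbp with 15.3 (SD 3.18), of which the last 2 differed by less than the SD of Dbp. Per1 followed with 9.31 (SD 1.07) and Bhlhe41 with 6.24 (SD 0.564). At the lower end Arntl had 4.38 (SD 0.376) and Per2 4.12 (SD 0.582), and Ciart had 2.84 (SD 0.599) and Per3 2.59 (SD 0.283), so that neither of these pairs was separated by more than its spread. The smallest number of reads on any member in any mouse was 122, on Ciart.

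Total counts lay between 18345517 and 41081083 per mouse in the KO mice and between 19445246 and 32098386 in WT mice. Timp2 itself checked the labels. Its level lay between 130.0 and 171 CPM (median 161) in the KO mice and between 256 and 380.4 CPM (median 333) in WT mice, and the groups did not overlap (log2 difference -0.999, p = 7.6e-16 after Benjamini-Hochberg adjustment over all genes tested, edgeR's quasi-likelihood test). Counts on Timp2 were thus lower by a factor of 0.500 but not at 0 in TIMP2 KO mice, and which exons they came from was not analysed here. All 8 hippocampal neuron markers, among them Prox1 of dentate granule cells and Wfs1 of CA1, were detected and tested. Their summed level was between 2720 and 3266 CPM in the KO mice and between 2675 and 3177 CPM in WT mice.

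To examine whether deletion of TIMP2 was accompanied by a change of the clock, each member was compared between the genotypes across all 30 mice. None of the 10 members differed, at an adjusted p under 0.05 (edgeR's quasi-likelihood test) or at an unadjusted p under 0.05, and the count was also 0 by both criteria with DESeq2 and with limma voom. Over all 16486 genes, 0.0546% passed at the adjusted and 5.03% at the unadjusted threshold. The members' log2 differences lay between -0.013 and 0.084, with a median of 0.018, where the median over all genes was 0.00011. The 95% intervals bound the differences that these mice leave possible, and the widest of them, for Ciart, ran from -0.13 to 0.29 on the log2 scale.

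Arntl, the activator of the loop, lay between 28.9 and 38.4 CPM in TIMP2 KO mice, with a median of 32.5, and between 25.6 and 38.9 CPM in WT mice, with a median of 33.1. The KO mice lay wholly within the range of the WT mice. The log2 difference was -0.010 (95% interval -0.10 to 0.080, p = 0.82, edgeR's quasi-likelihood test).

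The period genes encode the repressors that bind CLOCK and ARNTL together with the cryptochromes. Per1, which is also an immediate response gene, lay between 42.0 and 68.2 CPM in TIMP2 KO (median 53.3) and between 45.5 and 63.7 CPM in WT mice (median 52.1). Per2 lay between 18.7 and 36.0 CPM (median 24.9) and between 19.6 and 30.6 CPM (median 23.6), respectively. Per3, the period gene that the loop can do without, lay between 18.7 and 31.6 CPM (median 25.8) and between 21.0 and 28.9 CPM (median 24.0). In all 3 genes the range of the KO mice enclosed that of the WT mice. The edgeR log2 differences were 0.019 for Per1 (95% interval -0.094 to 0.13), 0.049 for Per2 (-0.086 to 0.18) and 0.063 for Per3 (-0.046 to 0.17), with unadjusted p of 0.74, 0.47 and 0.25.

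The other repressors gave similar values. Ciart (also called Chrono), which represses CLOCK and ARNTL apart from the period proteins, lay between 4.46 and 9.09 CPM in TIMP2 KO (median 6.14) and between 4.36 and 9.61 CPM in WT mice (median 5.97). Bhlhe41 (DEC2), which competes for E-boxes, lay between 36.9 and 54.1 CPM (median 40.9) and between 37.2 and 49.7 CPM (median 41.7). The groups overlapped over nearly the whole range, and 8 of 13 KO mice were above the WT median of Ciart and 6 of 13 above that of Bhlhe41. The edgeR log2 differences were 0.084 (95% interval -0.13 to 0.29, p = 0.42) and -0.013 (-0.10 to 0.077, p = 0.77).

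The receptors Nr1d1 and Nr1d2 repress Arntl. Nr1d1 lay between 68.3 and 97.7 CPM in TIMP2 KO (median 75.6) and between 63.4 and 94.2 CPM in WT mice (median 78.5). Nr1d2 lay between 82.2 and 113.8 CPM (median 92.6) and between 78.3 and 109.9 CPM (median 87.8). Of the 13 KO mice, 4 lay above the WT median of Nr1d1 and 9 above that of Nr1d2. The edgeR log2 differences were 0.017 (95% interval -0.090 to 0.12, p = 0.75) and 0.050 (-0.036 to 0.14, p = 0.25).

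Dbp is the output gene with a strong rhythm in most tissues, and it lay between 29.1 and 71.2 CPM in TIMP2 KO (median 45.2) and between 36.0 and 66.2 CPM in WT mice (median 45.3). Its relative Tef lay between 362 and 415 CPM (median 394) and between 343 and 441 CPM (median 395). The medians of both genes were nearly equal between the genotypes. The edgeR log2 differences were 0.0050 for Dbp (95% interval -0.19 to 0.20, p = 0.96) and -0.0040 for Tef (-0.060 to 0.052, p = 0.88).

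**Figure D1:**
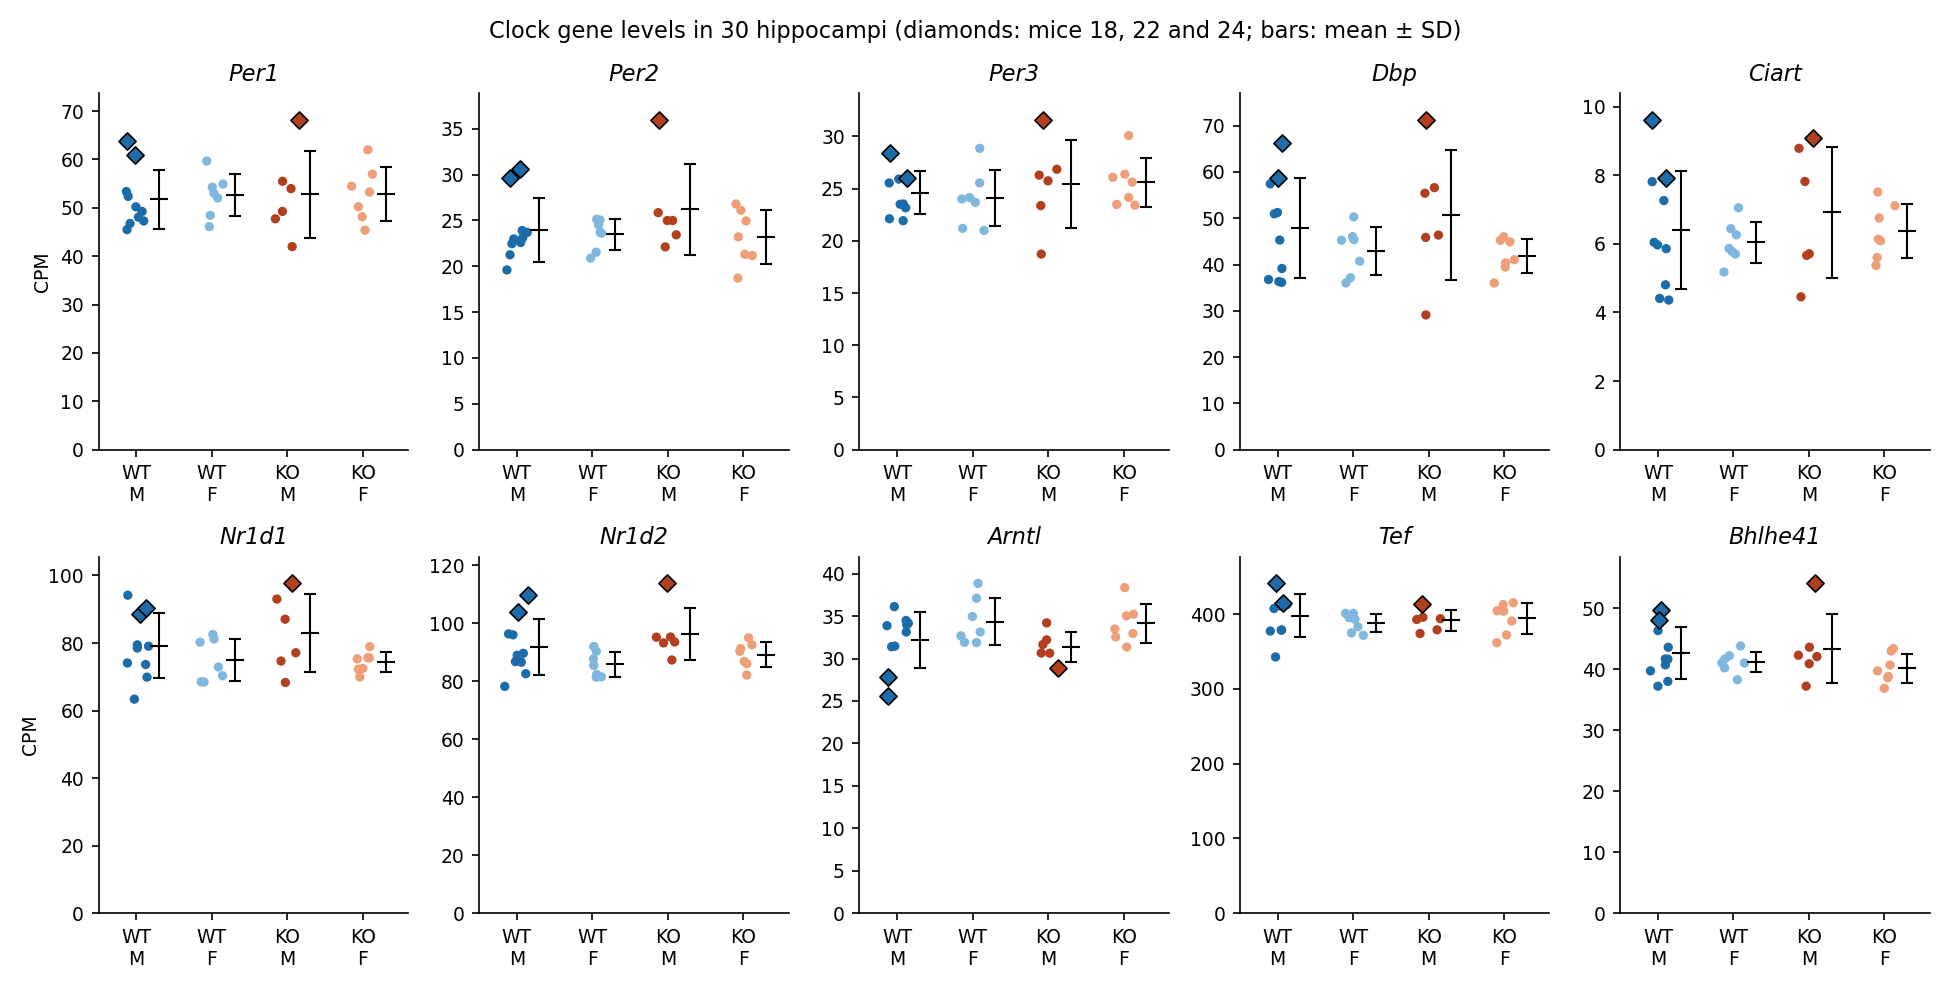
Level of each member in each mouse, in CPM (vertical axes from 0), by sex and genotype (M, male; F, female; 10 WT males, 7 WT females, 6 TIMP2 KO males and 7 TIMP2 KO females); each point is a mouse, bars give mean ± SD, and diamonds mark mice 18, 22 and 24. The genotypes overlap in all 10 panels, and the diamonds lie at the upper end in most panels and at the lower end for Arntl.

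The wider clock was examined through 25 other genes of the loop and its regulators, all of which were tested. At an unadjusted p under 0.05, 0 of the 25 differed between the genotypes, and their log2 differences lay between -0.11 and 0.098 with a median of -0.010. Clock, the usual partner of ARNTL, had a log2 difference of -0.030 (p = 0.23) and Npas2, its relative in the forebrain, -0.083 (p = 0.18). The cryptochromes, which repress together with the period proteins, gave -0.020 for Cry1 (p = 0.67) and -0.059 for Cry2 (p = 0.050), with Cry2 between 117 and 137 CPM in the KO mice and between 117 and 152 CPM in WT mice. Rora, which activates Arntl, gave -0.057 (p = 0.12), and Nfil3, which opposes the D-box activators, 0.098 (p = 0.11). Hlf, the third of the D-box activators, gave -0.016 (p = 0.66) and Bhlhe40, the close relative of Bhlhe41, -0.00023 (p = 0.996), all p from edgeR's quasi-likelihood test and unadjusted.

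Levels were then compared between 14 females and 16 males, with genotype in the model. At an unadjusted p under 0.05 (edgeR's quasi-likelihood test) 4 of the 10 members differed, 3 lower and 1 higher in females, where 9.77% of all genes tested passed, 4.63% as lower and 5.14% as higher in females. At an adjusted p under 0.05, 0 of 10 passed, by edgeR and by DESeq2, against 0.218% of all genes, and the smallest adjusted p was 0.36. The members' median log2 difference was -0.088, and that of all genes was 0.00070.

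Dbp lay between 36.0 and 50.3 CPM in females (median 43.0) and between 29.1 and 71.2 CPM in males (median 48.7), and 13 of 14 females were below the male median. Nr1d2 lay between 81.4 and 95.04 CPM in females (median 87.3) and between 78.3 and 113.8 CPM in males (median 93.4), again with 13 of 14 females below the male median. The males thus enclosed the females at both ends. Nr1d1 lay between 68.5 and 82.6 CPM (median 74.1) in females and between 63.4 and 97.7 CPM (median 78.8) in males, and 10 of 14 females were below the male median. Arntl went the other way, with 31.4 to 38.9 CPM in females (median 33.3) and 25.6 to 36.1 CPM in males (median 31.9), and 11 of 14 females were above the male median. The log2 differences were -0.21 for Dbp (SE 0.093, p = 0.032), -0.12 for Nr1d1 (SE 0.050, p = 0.027), -0.11 for Nr1d2 (SE 0.039, p = 0.010) and 0.11 for Arntl (SE 0.041, p = 0.013), with adjusted p of 0.45, 0.44, 0.36 and 0.37 by edgeR's quasi-likelihood test. Bhlhe41 gave -0.078 (p = 0.080), Per2 -0.099 (p = 0.14) and Ciart -0.10 (p = 0.32), and Per1, Per3 and Tef lay between -0.015 and 0.013.

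These sex differences were also computed without mice 18, 22 and 24, a TIMP2 KO and a pair of WT males, which had the highest scores on the component that the members share, as described further on. Because these mice are all male and were left out by the levels of the same genes, this moves the male means towards those of the females by construction. Without them 1 of 10 members passed at an unadjusted p under 0.05. It was Per1, higher in females (log2 difference 0.094, p = 0.040, edgeR's quasi-likelihood test), which had not passed with them. Its p cannot be read as a sex difference, because these males, high in Per1, had been left out. Without them Dbp gave -0.088 (p = 0.28), Nr1d1 -0.065 (p = 0.18), Nr1d2 -0.048 (p = 0.10) and Arntl 0.064 (p = 0.071). Leaving out 1 mouse at a time gave between 2 and 5 members, with 2 without mouse 1, 18 or 29.

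Of the 25 other clock genes, 2 passed at an unadjusted p under 0.05 between the sexes, a share below the 9.77% of all genes tested. Rorb, of the family that activates Arntl, was higher in females (log2 difference 0.16, p = 0.013), with 12.2 to 17.9 CPM (median 14.6) against 10.5 to 16.8 CPM (median 12.7) in males. Nampt, the enzyme of NAD synthesis that the clock drives, was lower in females (-0.055, p = 0.015), with 75.4 to 84.0 CPM (median 80.3) against 76.2 to 89.4 CPM (median 83.5). Their adjusted p were 0.37 and 0.39 by edgeR's quasi-likelihood test. In the test of whether the KO difference itself differed between the sexes, 0 of 10 members passed at an unadjusted p under 0.05 by edgeR and by DESeq2, where 2.57% of all genes did, and 0% of genes passed at an adjusted p under 0.05. The intervals of that difference were wide, from -0.51 to 0.26 for Dbp and from -0.47 to 0.38 for Ciart on the log2 scale.

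**Figure D2:**
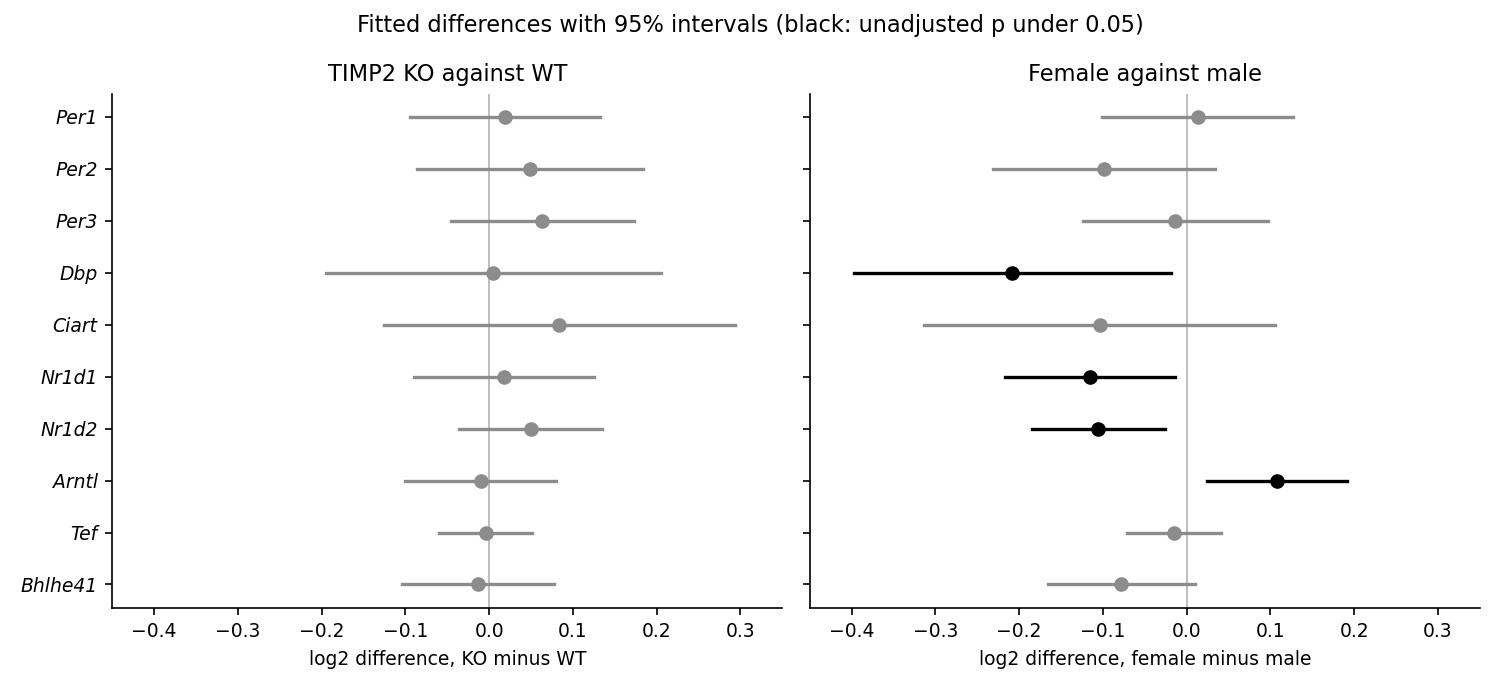
Fitted log2 differences of the 10 members (horizontal axes) with 95% intervals from edgeR, KO minus WT in the left panel and female minus male in the right panel, 30 mice in each; black marks an unadjusted p under 0.05. All 10 intervals in the left panel cross 0, and those of Dbp, Nr1d1, Nr1d2 and Arntl in the right panel do not.

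The spread between mice was wide for some of these genes. Around the means of each sex and genotype, the SD of log2 CPM was 0.31 for Ciart and 0.29 for Dbp. This placed them at the 99.2 and 99.0 percentiles of the 11548 genes with a mean of at least 5 CPM. Among all genes tested they were at the 83.5 and 81.6 percentiles. Ciart, with a median of 6.06 CPM, lies near that floor, where counting error is larger. Per2 (SD 0.19) and Per1 (SD 0.17) were at the 94.4 and 91.0 percentiles of the genes above the floor, and at 68.9 and 65.0 of all genes tested. Above the floor Per3 and Nr1d1 were at 89.3 and 85.5, and Bhlhe41, Arntl and Nr1d2 at 73.9, 71.8 and 68.5. Tef was the steadiest, with an SD of 0.078, at the 36.1 percentile above the floor. From the lowest to the highest mouse, Dbp spanned a factor of 2.45 and Ciart of 2.20, while Per2 spanned 1.92 and Tef 1.29.

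Much of this spread was shared between the members. In a principal component analysis of the 10 members, given as a description, the first component held 62.3% of their variance and the second 12.9%. On the first component 9 members had positive loadings and Arntl had a negative loading of -0.33. Bhlhe41 (0.37), Nr1d2 (0.35) and Dbp (0.35) had the highest loadings and Tef (0.15) the lowest of the positive ones. Scores ran from -3.76 to 7.14 in TIMP2 KO (median 0.074) and from -2.91 to 5.37 in WT mice (median -1.12), so both genotypes held mice from the lower to the upper end.

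Mice 18, 22 and 24 had the highest scores, 7.14, 5.11 and 5.37, and the next mouse had 2.01. Dbp was at 71.2, 66.2 and 58.8 CPM in them, and Per2 at 36.0, 29.7 and 30.6 CPM, the 3 highest values of each gene. Nr1d2 (114, 104 and 109.9 CPM) and Bhlhe41 (54.1, 49.7 and 48.2 CPM) were also highest in these mice, and Arntl (28.9, 25.6 and 27.8 CPM) was lowest. Of the 10 members, 7 had their highest value in mouse 18. At the other end, the lowest Dbp (29.1 CPM) was in mouse 10, a KO male, which was lowest in Per1 (42.0 CPM) and Per3 (18.7 CPM) too but had an Arntl level of 34.2 CPM, close to the median of 33.0 CPM.

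Other measures of these 3 mice were set beside their clock genes. Their totals (33964732, 27652712 and 25269257 counts) and the summed level of the 25 other clock genes (1936, 1982 and 1974 CPM) lay within the range of the other 27 mice, which was 1863 to 2008 CPM for the latter. The TMM factor, which scales the library size, was 0.976 in mouse 18, below the other 27 (0.979 to 1.017). It was within their range in mice 22 (0.991) and 24 (0.993). The summed level of the 8 glucocorticoid-responsive genes was 346 CPM in mouse 18, 263 CPM in mouse 22 and 356 CPM in mouse 24, against 229 to 302 CPM in the other 27, so that mice 18 and 24 but not mouse 22 lay above the rest. Sgk1, a kinase induced by corticosterone, was at 104 CPM in mice 18 and 24 but at 62.0 CPM in mouse 22, and between 50.9 and 76.4 CPM in the other 27. Fkbp5, which encodes a co-chaperone of the glucocorticoid receptor, was at 89.8 and 91.3 CPM in mice 18 and 24, and between 65.0 and 83.5 CPM in the other 27. Tsc22d3 was at 66.0 and 68.4 CPM, and between 35.6 and 59.1 CPM in the other 27. In mouse 22 all 3 genes lay within the range of the other 27, and Pdk4, Cdkn1a and Sult1a1 did so in all 3 mice. Mouse 18 had the lowest Timp2 of all mice (130.0 CPM), the lowest summed level of the 7 meningeal fibroblast markers (48.0 CPM, others from 67.8 CPM upwards) and the highest of the 6 oligodendrocyte markers (4159 CPM, the other 27 up to 3738 CPM). Its summed neuron markers (3266 CPM) and microglia markers (309 CPM) were also the highest. The part of stress hormones, of cell makeup or of the hour of dissection in these levels was not tested.

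**Figure D3:**
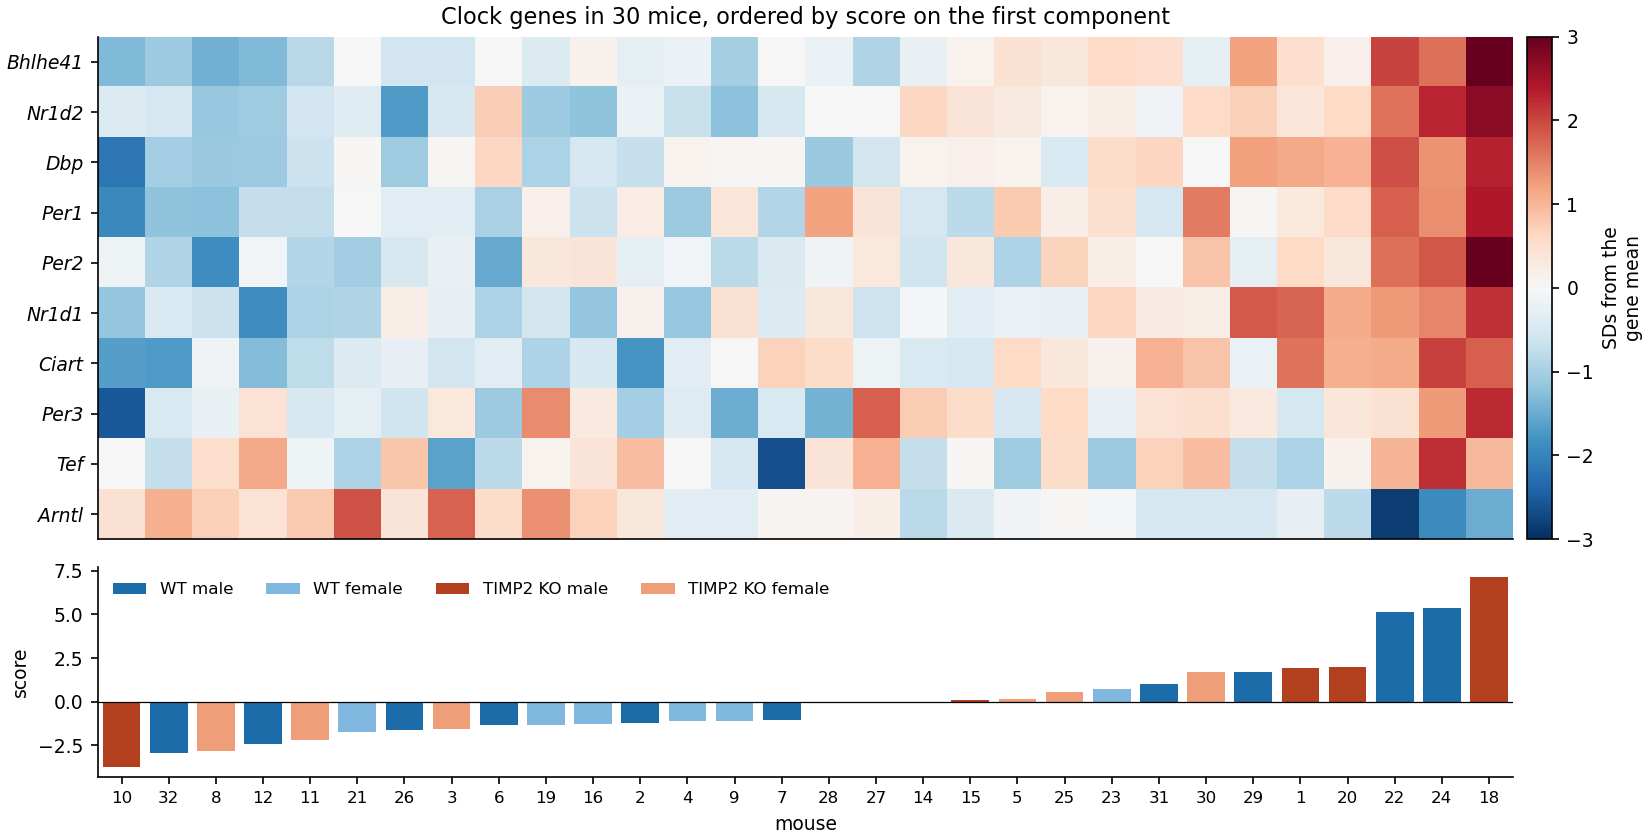
Upper panel, level of each member (rows, ordered by loading) in each of 30 mice (columns), as SDs of log2 CPM from the gene's mean; lower panel, the score of each mouse on the first component, with mice in the same order and coloured by sex and genotype. Mice 22, 24 and 18 at the right end score from 5.11 to 7.14 with Arntl low and most other members high, and the genotypes are mixed along the order.

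The pairs of members were then tested, 45 in all, by Pearson's r and Spearman's rho of log2 CPM with a 2-sided permutation test of 100000 resamples and Benjamini-Hochberg adjustment over the 45 pairs. By r, 36 pairs had an adjusted p under 0.05, and by rho 30 pairs. All 9 pairs with Arntl were negative (r from -0.72 to -0.30), and 8 of them passed. All 36 pairs without Arntl were positive, and 28 passed. Each result was also computed over the 27 mice other than mice 18, 22 and 24, which lowers r in part by construction, as mice were left out by their level. Then 15 of the 45 pairs passed by r, all of them among the 36, and 17 passed by rho. All 9 pairs with Arntl stayed negative, with r from -0.51 to -0.045, and 31 of the 36 others stayed positive, the 5 that changed sign all being pairs with Tef.

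A group of 6 members, Dbp, Ciart, Nr1d1, Nr1d2, Bhlhe41 and Arntl, was picked after these values were seen. All 15 pairs among them passed over 30 mice and 13 over 27 mice, which follows in part from the picking. Dbp and Bhlhe41 were the closest pair (r = 0.87, permutation p = 1e-05, the smallest that the resamples can give, adjusted p = 4.5e-05, rho = 0.84, permutation p = 1e-05, adjusted p = 1.8e-04), with r = 0.83 without the 2 mice farthest from the Dbp median and r = 0.77 over 27 mice (adjusted p = 4.5e-04). Nr1d2 with Bhlhe41 gave r = 0.82 and rho = 0.71 (permutation adjusted p = 4.5e-05 and 2.25e-04), r = 0.69 without the 2 farthest mice, and r = 0.59 over 27 mice (adjusted p = 0.0079). Dbp with Nr1d1 gave r = 0.75 and rho = 0.62 (permutation adjusted p = 4.5e-05 and 0.0010), r = 0.68 without the 2 farthest mice, and r = 0.62 over 27 mice (adjusted p = 0.0076).

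Arntl moved against these genes. With Dbp it gave r = -0.68 and rho = -0.72 (permutation adjusted p = 1.1e-04 and 3.9e-04), r = -0.68 without the 2 mice farthest from the Dbp median, and r = -0.46 over 27 mice (adjusted p = 0.049). With Nr1d2, its repressor, it gave r = -0.72 and rho = -0.67 (permutation adjusted p = 4.5e-05 and 4.0e-04), r = -0.63 without the 2 farthest mice, and r = -0.50 over 27 mice (adjusted p = 0.030). With Ciart it gave r = -0.67 and rho = -0.70 (permutation adjusted p = 1.1e-04 and 1.8e-04), r = -0.56 without the 2 farthest mice, and r = -0.51 over 27 mice (adjusted p = 0.024). Arntl RNA thus tended to be lower in mice with more Dbp, Nr1d2 or Ciart RNA in both sets of mice. In the 14 females alone, r with Arntl was -0.23 for Dbp, -0.38 for Nr1d2 and -0.71 for Ciart, and none passed after adjustment. In the 16 males alone it was -0.78, -0.78 and -0.72.

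The period genes gave fewer pairs without the 3 mice. Of the 21 pairs that hold a period gene, pairs with Tef left out, 19 passed over 30 mice and 2 over 27 mice, which were Per1 with Nr1d1 and Per1 with Ciart. Per1 with Nr1d1 gave r = 0.71 and rho = 0.74 (permutation adjusted p = 4.5e-05 and 1.8e-04), r = 0.62 without the 2 farthest mice, and r = 0.55 over 27 mice (adjusted p = 0.013). Per1 with Per2 gave r = 0.70 and rho = 0.55 (permutation adjusted p = 6.9e-05 and 0.0052), r = 0.65 without the 2 farthest mice, but r = 0.42 over 27 mice (adjusted p = 0.078). Per3 with Nr1d1 was the weakest of these pairs, with r = 0.29 and rho = 0.17 (permutation adjusted p = 0.14 and 0.41), r = 0.028 without the 2 farthest mice and r = 0.016 over 27 mice.

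Tef, which like Dbp encodes a factor that acts through D-boxes, was not in the group. Of its 8 pairs other than that with Arntl, 1 passed, that with Per2 (r = 0.50 and rho = 0.52, permutation adjusted p = 0.0084 and 0.0073, r = 0.36 without the 2 farthest mice), and over 27 mice 0 passed by r (with Per2 r = 0.29, adjusted p = 0.23). Tef with Dbp gave r = 0.0096 and rho = -0.10 (permutation adjusted p = 0.96 and 0.62), and over 27 mice r = -0.41 (adjusted p = 0.083) and rho = -0.45, which passed (adjusted p = 0.049).

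**Figure D4:**
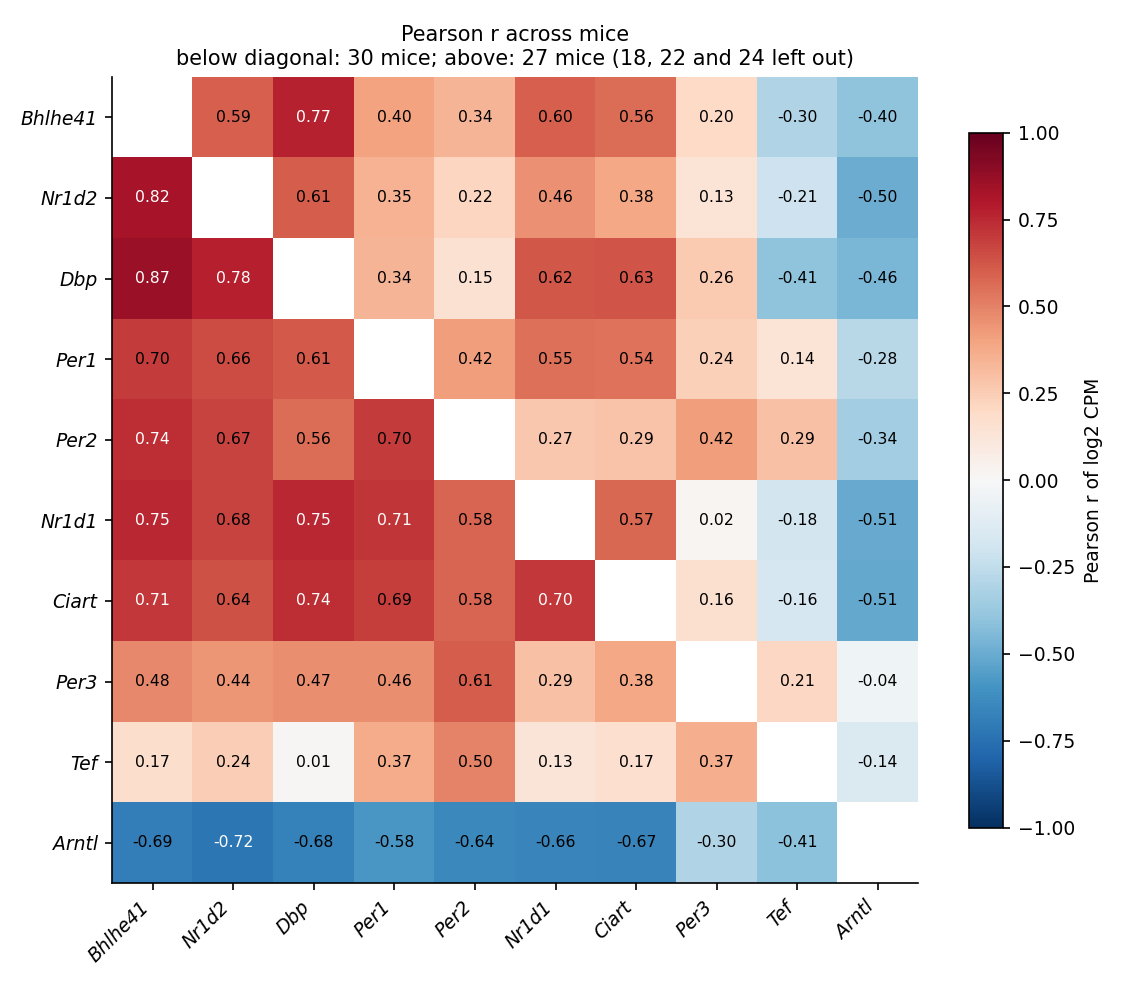
Pearson r of log2 CPM for each pair of members, over 30 mice below the diagonal and over 27 mice, without mice 18, 22 and 24, above it (colour scale from -1 to 1). Dbp with Bhlhe41 stands at 0.87 below and 0.77 above, the Arntl row and column are negative throughout, and the values of the period genes and Tef are lower above the diagonal.

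The pairs were also examined apart from the group means and within groups. With levels centred on the mean of each sex and genotype, 36 pairs passed again, and 1 pair, Dbp with Tef, changed sign. Within TIMP2 KO mice alone 30 pairs passed, and within WT mice alone 26 did. The sexes gave different counts. Within the 16 males 37 pairs passed by r and 34 by rho, and within the 14 females 0 passed by r or rho after adjustment, with 7 and 8 pairs at an unadjusted permutation p under 0.05. No pair changed sign in males alone, and 9 of the 45 did in females alone, 6 of them pairs of Per3 and 3 of them pairs of Tef. Among these were Dbp with Tef (r = -0.60 in females), Per3 with Nr1d1 (-0.32), Per3 with Ciart (-0.27) and Per3 with Arntl (0.26). For the 6 members of the group, the sign of all 15 pairs was the same in females and in males. The group was formed after the values were seen and leaves out Per3 and Tef, which hold the 9 pairs that changed sign. This agreement thus follows in part from the picking. The median size of r over the 15 pairs was 0.38 in the 14 females, 0.79 in the 16 males and 0.68 in the 13 males other than mice 18, 22 and 24. Dbp also varied less in females, with an SD of log2 CPM of 0.15, than in males, with 0.36, or in those 13 males, with 0.30. The difference between the sexes in these counts, correlations and SDs was not tested.

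The likeness of the members to each other was set against all other genes as a description. Among 16485 genes ordered by r with Dbp over 30 mice, Bhlhe41, Nr1d2, Nr1d1 and Ciart took the first 4 places from the top, and Arntl took the seventh place from the bottom. By the size of r, Per1 was at place 57, Per2 at 152, Per3 at 695 and Tef at 15952. The median size of r with Dbp was 0.68 over the other members and 0.17 over all genes. Of the 9 other members, 8 lay past the 95th percentile of the size of r over all genes for Dbp and Per2. For Per1, Ciart, Nr1d1, Nr1d2, Arntl and Bhlhe41 there were 7. For Per3 and for Tef there was only 1. The median size over the other members was 0.44 for Per3 and 0.24 for Tef, below their 95th percentiles of 0.51 and 0.43. Over 27 mice Bhlhe41 kept the first place by size, Ciart, Nr1d1 and Nr1d2 were at 30, 37 and 46, and Arntl was at 486.

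The genes most like Dbp outside the members were Pprc1, a coactivator related to PGC-1 (r = 0.73), Klf15, a transcription factor that responds to glucocorticoids (0.71), Cebpa (0.71), Tns2 (0.70) and Rad18 (0.69), over 30 mice. The most opposite were Nabp1 (-0.78), Cfap300 (-0.74), Gpr162 (-0.72), Pdk1, a kinase of pyruvate dehydrogenase (-0.72), and Tmem50b (-0.69). Over 27 mice these values lay between 0.46 and 0.59 for the first 5 and between -0.69 and -0.54 for the other 5. They were picked as the extremes of all genes and have no test.

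Other clock genes were set against Dbp and Arntl in the same way, 50 relations in all, chosen after seeing the data. Over 30 mice 7 passed at an adjusted p under 0.05 by r, and over 27 mice 0 did. Cry2 rose with Dbp (r = 0.56 and rho = 0.51, permutation adjusted p = 0.027 and 0.055), with r = 0.54 without the 2 farthest mice and r = 0.535 over 27 mice (adjusted p = 0.11). Nfil3, the repressor at D-boxes, fell as Dbp rose (r = -0.55 and rho = -0.60, permutation adjusted p = 0.027 and 0.017), with r = -0.49 without the 2 farthest mice and -0.45 over 27 mice (adjusted p = 0.15). Bhlhe40 rose with Dbp (r = 0.55 and rho = 0.49, permutation adjusted p = 0.027 and 0.069), with r = 0.40 without the 2 farthest mice and 0.35 over 27 mice. Rbm3, a cold-inducible RNA-binding protein, fell as Arntl rose (r = -0.54 and rho = -0.66, permutation adjusted p = 0.033 and 0.0060), with r = -0.62 without the 2 farthest mice, and over 27 mice its rho of -0.72 had an adjusted p of 0.0020 where its r of -0.56 had 0.11. By rho, Rbm3 also passed with Dbp (rho = 0.57, permutation adjusted p = 0.020, r = 0.45). The other 3 that passed by r were Cipc with Dbp (r = 0.49), Csnk1e with Arntl (r = 0.54) and Bhlhe40 with Arntl (r = -0.48). Clock itself gave r = -0.26 with Dbp and -0.099 with Arntl, and Cry1 gave 0.095 and -0.028, none of which passed.

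Per genes are also induced by neuronal activity and by glucocorticoids, so each member was set against the mean log2 CPM of 10 rapid activity genes, of 8 glucocorticoid-responsive genes and of the choroid plexus markers, and against log2 total counts, 40 relations in all. By r, 8 passed at an adjusted p under 0.05, and by rho 0 did. With the rapid activity genes Per1 alone passed (r = 0.48 and rho = 0.54, permutation adjusted p = 0.037 and 0.084), with r = 0.46 without the 2 farthest mice. Over 27 mice this relation was closer (r = 0.68, adjusted p = 0.0032), and it was the only one of the 40 that passed there. Dbp gave r = 0.00069 and Bhlhe41 0.048 with the same genes.

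With the glucocorticoid-responsive genes 7 members passed over 30 mice, with Per2 (r = 0.60 and rho = 0.31, permutation adjusted p = 0.019 and 0.43), Per3 (r = 0.59 and rho = 0.35, adjusted p = 0.019 and 0.43) and Per1 (r = 0.56 and rho = 0.44, adjusted p = 0.019 and 0.30) as the highest. Without the 2 farthest mice r fell to 0.18, 0.43 and 0.38, and over 27 mice to 0.15, 0.39 and 0.30, with adjusted p from 0.26 to 0.89. The relation of Per2 rested on mice 18 and 24. The other 4, Bhlhe41, Nr1d2, Ciart and Nr1d1, had r from 0.49 to 0.56 over 30 mice and from -0.11 to 0.17 over 27 mice. With the choroid plexus markers r lay between -0.13 and 0.11, and with log2 total counts between -0.32 and 0.15, and 0 of 10 relations passed for each.

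**Figure D5:**
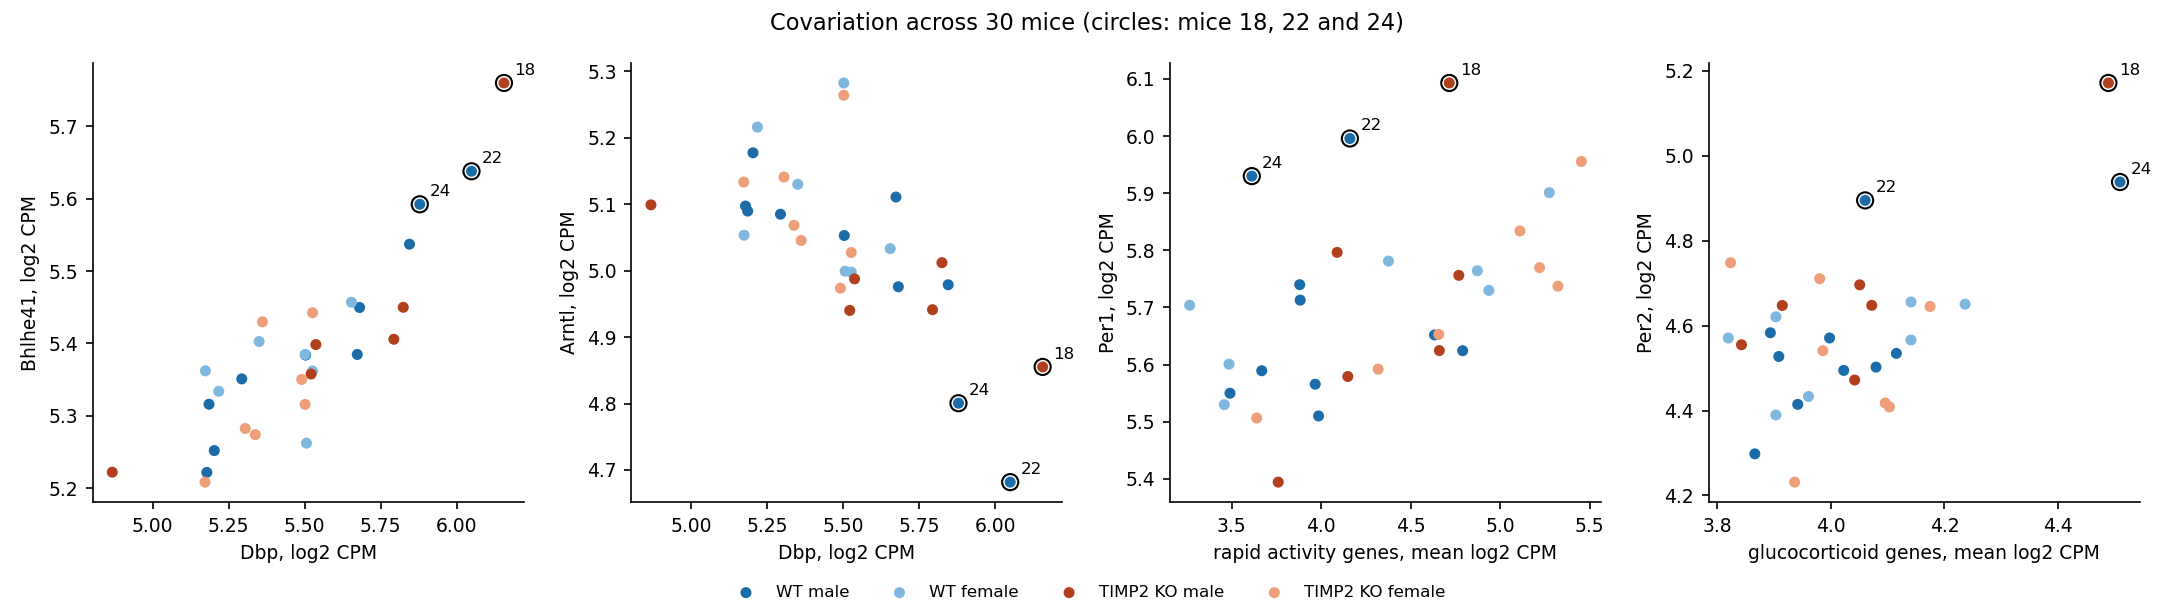
Each point is 1 of 30 mice, coloured by sex and genotype, with mice 18, 22 and 24 circled and numbered; all axes are log2 CPM. From left to right, Bhlhe41 and Arntl against Dbp (r = 0.87 and -0.68), Per1 against the mean of 10 rapid activity genes (r = 0.48), and Per2 against the mean of 8 glucocorticoid-responsive genes (r = 0.60, where mice 18 and 24 lie apart from the rest).

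The lists beside which the members were read moved between the genotypes as follows, at an unadjusted p under 0.05 by edgeR. Of the 10 rapid activity genes 9 were higher in TIMP2 KO, with log2 differences of 0.42 for Nr4a1, 0.50 for Arc, 0.32 for Junb, 0.37 for Ier2 and 0.33 for Fosb, and 0 passed at an adjusted p under 0.05. Between the sexes 7 were higher in females, with 0.44 for Fosb and 1.11 for Egr2. Of the 8 glucocorticoid-responsive genes 0 passed between the genotypes, and between the sexes Pdk4 (0.24) and Cdkn1a (0.16) were higher and Fkbp5 (-0.13) and Plin4 (-0.61) lower in females. With the mean of the rapid activity genes as a covariate, again 4 members passed between the sexes. The share of all genes that passed in that fit is not given here. Of the 8 choroid plexus markers 4 were tested, and Ttr (log2 difference 3.67, adjusted p = 0.033, edgeR's quasi-likelihood test), Clic6 (1.52) and Enpp2 (0.43) were higher in TIMP2 KO, with a summed level of 127 to 1109 CPM (median 159) against 122 to 173 CPM (median 153) in WT mice.

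Markers of other cells moved little with the genotype, and their part in the members' levels was not tested. Of 8 hippocampal neuron markers Prox1 (-0.16) and Dsp (-0.21) were lower in TIMP2 KO, of 6 endothelial markers Slco1a4 (-0.10) was lower, and of 5 astrocyte markers Gfap (0.093) was higher, all at an unadjusted p only. Of the 6 tested thalamus and habenula markers, 7 meningeal fibroblast markers, 6 oligodendrocyte markers and 5 microglia markers, 0 passed. In females against males Neurod6 (-0.14) and Slc17a7 (-0.071) of the neuron markers and Flt1 (-0.11) of the endothelial markers were lower. Col3a1 (0.46), Slc6a13 (0.30), Cdh5 (0.10), Aqp4 (0.11), Gja1 (0.075), Slc1a3 (0.064) and P2ry12 (0.080) were higher in females, again at an unadjusted p only.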

How the data were processed

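RNA-sequencing was performed by the authors on dissected hippocampi with poly(A) selection and paired-end reads. Per the submitters' processing notes and the study's methods, reads were trimmed with Trimmomatic 0.36, aligned to GRCm38 with STAR 2.5.2b and counted with featureCounts of Subread 1.5.2, and the authors deposited raw counts per gene and mouse without normalization. The annotation release and the strand setting are not given in the sources used here. All 30 columns were matched to a mouse by its title, and 0 columns were left over. No pair of mice had identical counts. The labels give no batch, so the isolation or harvest date, for which the authors adjusted in their network analysis, could not be included in any fit.

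The counts were tested with edgeR 4.0.16 in R 4.3.3 (filterByExpr, TMM, quasi-likelihood test), with genotype alone, genotype and sex, or their interaction, over 16486 genes. DESeq2 1.42.0 and limma 3.58.1 were alternatives. Log2 CPM used a prior count of 2. Correlations used Python 3.11.15 and numpy 2.4.6. The scripts were tested on simulated data. Symbols were matched for 48970 identifiers, and 345 had none. Positions and exon lengths came from GENCODE release M21 and promoter sequences from RefSeq. P-values measure the spread between mice. Counting error is part of that spread. It is largest for Ciart, whose lowest count, 122, was the lowest of any member.

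The members and lists were chosen with earlier results of these data known. Named genes were the members, the 8 main partners (Clock, Npas2, Cry1, Cry2, Rora, Nfil3, Hlf and Bhlhe40), other clock genes at an unadjusted p under 0.05 by genotype or sex, up to 5 genes of each other list with the smallest unadjusted p under 0.05, the 5 genes with the highest and the 5 with the lowest r with Dbp, and Timp2. Other clock genes named with their correlations were chosen after their values were seen. The alternatives were other tools, size factors, filters, covariates, sexes or genotypes alone and another prior count. Leaving out each mouse in turn, leaving out mice 18, 22 and 24, correlations within each sex, and the rapid activity genes as a covariate were added after seeing the data.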

Additional observations from a re-analysis of the deposited data

Results flagged for a closer look

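In 124 sets of values (31 genes in the 4 groups of sex and genotype), the highest or lowest mouse was compared with its nearest neighbour by Dixon's criterion. It stood apart in 10, where chance gives about 1 in 20, or 6.2, if the sets are independent. They are not, since they share mice and the members vary together. The genes with the highest and lowest r with Dbp were also picked from these same mice. No conclusion is drawn from the count. All values here are log2 CPM.

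Mouse 18 gave 5 of these among the TIMP2 KO males. Its Per2 was 5.17 and the other 5 mice lay between 4.47 and 4.70. Its Nr1d2 was 6.83, against 6.45 to 6.58. It was low in Npas2, the relative of Clock, with 3.88 against 4.50 to 4.5999, in Pdk1 with 5.67 against 5.89 to 6.01, and in Timp2 with 7.02 against 7.28 to 7.38. Among TIMP2 KO females, mouse 8 was low in Npas2 (4.28, others 4.56 to 4.77) and mouse 27 in Cry2 (6.87, others 6.99 to 7.08). Among WT females, mouse 28 was low in Cry2 (6.88, others 7.04 to 7.14) and mouse 9 high in Gpr162 (7.67, others 7.52 to 7.58). Among WT males, mouse 24 was high in Klf15 (4.82, others 4.14 to 4.50).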

How the results depend on the processing

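For the comparisons of genotypes and sexes and their interaction, 0 of 10 members passed at an adjusted p under 0.05 under every alternative run, each mouse left out in turn included, and the unadjusted count between genotypes stayed at 0. Apart from leaving out 1 mouse, 642 of the values recomputed kept their direction and their side of the threshold, 8 newly passed and 53 changed sign. Another 111 were weaker, which means that they no longer passed or were counts of members, pairs or relations that fell. The cause of these changes was not tested. The study states that its controls were littermates. The labels give no litter and no mouse is in both groups, so no paired analysis was possible.

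None of the KO differences that changed sign had passed a threshold. With limma voom, Per1 was -0.0092, Dbp -0.030, Nr1d1 -0.0063 and Arntl 0.0095 on the log2 scale. In females alone Per2 was -0.022, Dbp -0.041, Nr1d1 -0.011, Tef 0.022, Rora 0.0013 and Hlf 0.0045. In males alone Bhlhe41 was 0.023, Cry1 0.024, Rorb -0.070 and Bhlhe40 0.041. With log2 total counts as a covariate Tef was 0.0013, Bhlhe40 0.0040 and Nampt -0.0013. With sex as a covariate Rorb was -0.0021 and Bhlhe40 0.00060. Bhlhe40 was 7.6e-05 with DESeq2 and 0.0024 without a filter. Without mice 18, 22 and 24, Tef was 0.0062, Hlf 0.00042 and Bhlhe40 0.010. Leaving out 1 mouse gave ranges across 0 for Per1 (-0.018 to 0.044), Per2 (-0.010 to 0.076), Dbp (-0.065 to 0.050), Nr1d1 (-0.014 to 0.037), Arntl (-0.031 to 0.0059), Tef (-0.016 to 0.0069), Bhlhe41 (-0.051 to 0.0031), Cry1 (-0.039 to 0.00078), Rorb (-0.014 to 0.049), Hlf (-0.030 to 0.0024), Bhlhe40 (-0.022 to 0.022) and Nampt (-0.0035 to 0.012). Cry2 (-0.071 to -0.048) passed at an unadjusted p under 0.05 on leaving out any 1 of 8 mice, with DESeq2 and with the stricter filter.

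Between the sexes, the 4 members at an unadjusted p under 0.05 became 1 without mice 18, 22 and 24, with Per2 at 0.0051, Per3 at 0.041, Ciart at 0.019, Tef at 0.0073 and Bhlhe40 at 0.047, and 2 to 5 on leaving out 1 mouse. Then Per1 ran from -0.011 to 0.050, Per3 from -0.046 to 0.017, Cry1 from -0.00069 to 0.032, Bhlhe40 from -0.026 to 0.014 and Timp2 from -0.043 to 0.0055. With the rapid activity genes as a covariate Per1 was -0.037. The shares of all genes that passed in these refits are not given here. The 36 called pairs became 15 without the 3 mice, 0 in females alone and 30 to 38 on leaving out 1 mouse. In females alone Per3 changed sign with Per1 (-0.022), Dbp (-0.15), Ciart (-0.27), Nr1d1 (-0.32), Arntl (0.26) and Bhlhe41 (-0.015), Tef with Dbp (-0.60), Nr1d1 (-0.17) and Bhlhe41 (-0.29), and the glucocorticoid-responsive genes with Ciart (-0.31), Nr1d1 (-0.16), Nr1d2 (-0.21) and Bhlhe41 (-0.070). In males alone Per1 changed sign with log2 total counts (0.089). Dbp with Tef was -0.0072 when centred, -0.021 in TIMP2 KO mice alone, -0.00033 with RLE size factors and -0.41 without the 3 mice, where Ciart (-0.16), Nr1d1 (-0.18), Nr1d2 (-0.21) and Bhlhe41 (-0.30) with Tef and Nr1d2 with the glucocorticoid-responsive genes (-0.11) also changed sign. The 8 relations to other measures became 0 in WT mice alone, 0 in TIMP2 KO mice alone, 0 in females alone and 1 without the 3 mice. Genotype or sex alone leaves fewer mice.

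Harvest date and time were not in the labels, so their part in the covariation was not tested. Ciart, with 122 to 301 counts per mouse, has the largest counting error. Pairs share mice and genes and are not independent of each other.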
